A study of Mus musculus with 2 samples.

Results

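The Sfmbt2 intron cluster is a tandem array of microRNA hairpins inside Sfmbt2, which encodes a Polycomb-group protein. Its members were taken as every GENCODE M21 gene of type miRNA that lies within the bounds of Sfmbt2 on mm10 chromosome 2 and on the same strand, and they numbered 119 of the 2202 microRNA genes counted. All 119 lay on the plus strand within 1 intron, from position 10461473 to 10523944. This is intron 10 of the transcript Sfmbt2-201 and intron 11 of Sfmbt2-205. The first hairpin began at 10465287 and the last ended at 10518279, and no exon of Sfmbt2 fell between them.

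The libraries were microRNA-seq of heart from female B6CASTF1/J mice aged 18 to 20 months, 2 libraries in 1 group with no other condition. B6CASTF1/J is the F1 hybrid of C57BL/6J and CAST/EiJ. Both libraries carry the same donor record and differ in their biosample record. Whether they are separate animals is unclear, so the spread between them may be technical, biological or both. With a single group there is no contrast between treatments, ages or sexes, and the values describe which hairpins of the cluster gave reads in this tissue and how the libraries differed.

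A microRNA is cut from a hairpin in a longer transcript and, loaded on an Argonaute protein, lowers mRNAs that pair with its seed, bases 2 to 8. The Sfmbt2 cluster is known as an expanded rodent cluster, imprinted with expression from the paternal copy in extraembryonic tissue, and its loss impairs placental growth. It is built from related families, Mir297, Mir466, Mir467 and Mir669, whose sequences are rich in alternating UG and CA letters. Neither parental allele can be told apart in counts per gene.

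By name, the 119 members fell into 29 hairpins of Mir669, 23 of Mir466, 14 of Mir467, 5 of Mir297 and 48 genes with a predicted-gene (Gm) symbol. Each Gm hairpin was aligned with the 71 named members, the shorter within the longer. Identity to the closest one ran from 80.6% to 100% with a median of 95.7%. The closest was a Mir669 hairpin for 45 of the 48, among them 34 at 90% identity or more. Gm25022 was identical over its length to a Mir467a hairpin, and Gm25285 and Gm25943 to Mir466 hairpins. The Gm genes are thus mostly Mir669-type hairpins by sequence, although the symbols do not show it.

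Mature sequences were matched by symbol to RefSeq (GRCm38.p6) for 0 of the 119 members and for 8 of 10 genes of the same families that lie on other chromosomes. These 8 relatives are used to show what the families look like. They are given 5′ to 3′ with the seed in capitals. Relatives rich in CA letters came from the Mir466 and Mir467 families.
miR-466q: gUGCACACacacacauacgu
miR-466i-3p: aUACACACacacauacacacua
miR-467f: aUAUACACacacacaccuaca
miR-467g: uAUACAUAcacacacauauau
Relatives rich in UG letters came from 3 families.
miR-466j: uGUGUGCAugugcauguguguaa
miR-466k: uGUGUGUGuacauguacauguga
miR-467h: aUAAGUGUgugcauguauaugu
miR-669n: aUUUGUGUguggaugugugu
The 8 sequences held 8 different seeds, so a shared family name did not come with a shared seed here.

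Each seed was searched as its DNA letters on the hairpin strand alone, since a hairpin is read from 1 strand, in the GENCODE M21 hairpins. The seed of miR-466i-3p, UACACAC, was found in 60 of the 119 members (50.4%) and in 120 of the 2083 other hairpins (5.76%). It was present in the hairpins of all 6 members that had at least 10 counts in each library. That of miR-467g, AUACAUA, was in 65.5% of members and 3.12% of other hairpins. The seed of miR-669n, UUUGUGU, was in 8.40% and 2.26%, and in none of those 6 members. For miR-467h the seed UAAGUGU was in 1 of 119 members (0.840%), Mir467e, and in 13 of 2083 other hairpins (0.624%). None of the 8 mature sequences occurred whole in a member hairpin. These letters overlap each other in repeats of CA or UG, and a match in a hairpin says nothing of which bases become the mature microRNA.

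The repeat character extended over whole hairpins. Alternation was scored as the share of adjacent base pairs that switch between a purine and a pyrimidine. It had a median of 82.6% over the 119 members (lowest 64.3%, highest 94.6%), against a median of 44.0% over the 2083 other hairpins. The longest unbroken alternating stretch had a median of 21 bases in members and 6 bases elsewhere. The 2 sets overlapped, since some other hairpins reached 100%. Genes of the same families on other chromosomes ran from 64.7% (Mir467f) to 97.3% (Mir297-1), so alternation was not particular to the cluster.

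Copies were near identical as well. For 47 of the 119 members (39.5%), the entire hairpin recurred letter for letter at 1 or more other annotated loci, and the largest such group held 9. Each hairpin was then read in windows of 22 nt, about the length of a microRNA. A window was called unique when it occurred at no other annotated, non-overlapping hairpin on either strand. No window was unique in 54 members (45.4%), and the median member had 21.2% unique windows, against 100% in the median of the other hairpins. The search covered annotated hairpins alone, not the rest of the genome.

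**Figure D1:**
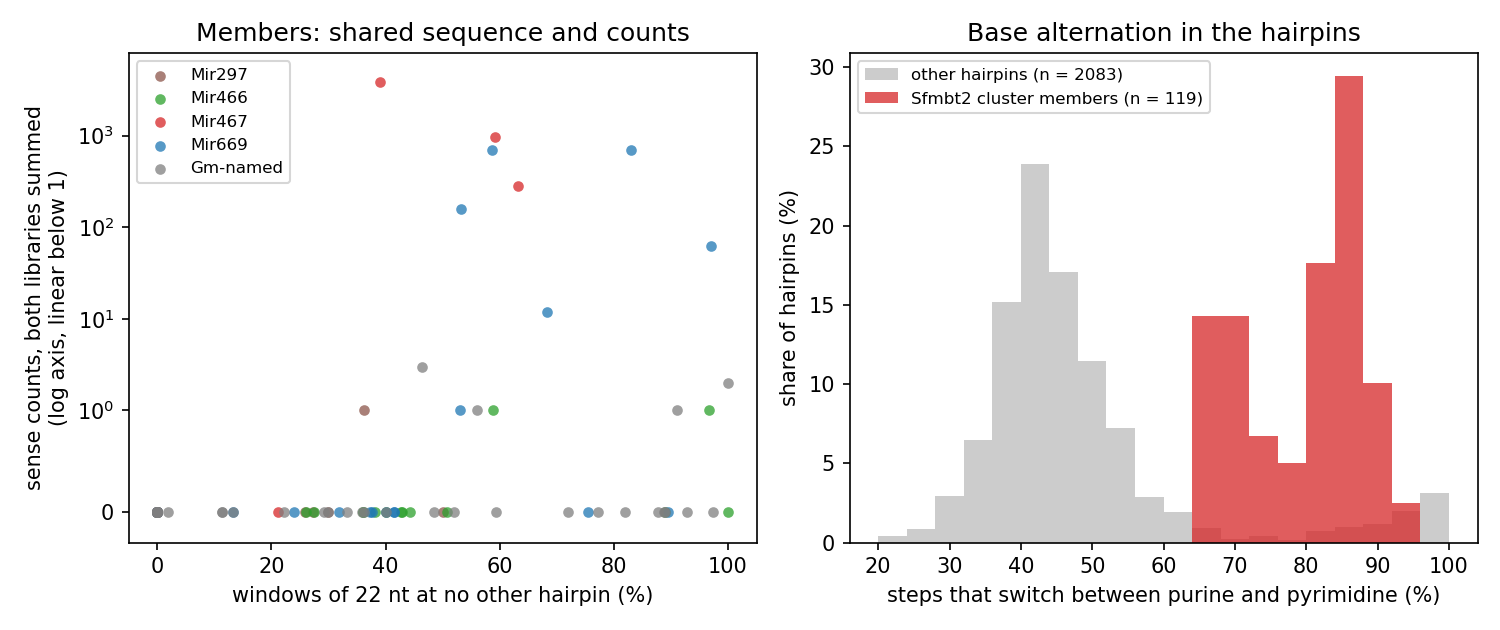
Left, each of the 119 members by the share of its 22 nt windows found at no other annotated hairpin (x, percent) and its sense counts summed over both libraries (y, log axis, linear below 1), coloured by family; all 54 members at 0% on the x axis have 0 counts. Right, histograms of base alternation (x, percent of adjacent steps) as shares of each set (y, percent), with members centred above the other hairpins (medians 82.6% and 44.0%).

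The sense columns of the 2 libraries held 3383676 counts over all genes in replicate 1 and 3676084 in replicate 2. CPM means counts per 1000000 of these totals. A level is per hairpin and is not divided by hairpin length, because a small RNA is read whole. A hairpin at 0 is limited to below 0.887 CPM in replicate 1 and 0.816 CPM in replicate 2 (3 counts). All intervals and limits cover counting error only, since PCR copies were not told apart. The heart label was checked on cardiac muscle hairpins: 7 of 7 had counts and 4 passed the minimum of 10 counts per library. Mir499, of a myosin gene intron, was the highest at 3772 ± 290 CPM (SD, n = 2). Mir1a-2 averaged 72.0 CPM. Mir1a-1, Mir133a-1 and Mir133a-2 missed the minimum, and the lowest of the 7 averaged 3.05 CPM. Whether reads of these numbered copies went uncounted for fitting several places was not tested. The 3 hairpins of the neuronal Mir124a were at 0 in both libraries, although their shared mature sequence makes that count uncertain. The hepatocyte hairpin Mir122 had 81 and 63 counts (20.5 ± 4.81 CPM), and 2 of 9 pluripotent cell hairpins were detected, the 9 together at 10.9 and 8.16 CPM.

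Of the 119 members, 103 had no count in either library, 16 had 1 or more counts, 8 had counts in both, and 6 reached 10 counts in each library, the minimum for detection used here. Over all 2202 genes, 1494 had no count in either library and 316 were detected. Summed over the cluster, replicate 1 held 2444 counts and replicate 2 held 4295. This was 0.0722% of the sense gene counts in replicate 1, with a Wilson 95% interval of 0.0694 to 0.0751, and 0.117% (0.113 to 0.120) in replicate 2. The cluster thus held 119 of the 2202 annotated hairpins but well under 1% of the counted reads.

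The detected members came from 2 families. From 3 of its 14 hairpins, Mir467 supplied 79.9% of the cluster's counts in replicate 1 (78.3 to 81.5, Wilson) and 73.5% in replicate 2 (72.1 to 74.8). Mir669 supplied 20.0% (18.5 to 21.6) and 26.4% (25.1 to 27.7), and 3 of its 29 hairpins were detected. Mir466, with the second most hairpins by name, gave 1 count in each library over 23 hairpins. Mir297 gave 1 count in replicate 1 and 0 in replicate 2 over 5 hairpins, and the 48 Gm genes gave 0 and 7. Of these families, Mir467 had 10 of 14 hairpins without a unique window, Mir669 13 of 29, Mir466 9 of 23, Mir297 0 of 5 and the Gm genes 22 of 48.

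Mir467d had the highest count. It held 1573 counts in replicate 1 and 2294 in replicate 2, or 465 and 624 CPM (544 ± 113, SD, n = 2), and ranked 86 of 2202 genes by mean CPM. Mir467e had 294 and 666 counts (134 ± 66.7 CPM), and Mir467c, the third detected hairpin of its family, had 86 and 195 (39.2 ± 19.5 CPM). Their 3 levels, as reads assigned to a hairpin, stood apart in the same order in both libraries. Mir467d had 39.1% unique windows, Mir467e 59.1% and Mir467c 63.2%, and the reads each lost to other places are not known. The other 11 Mir467 hairpins, Mir467a-1 to Mir467a-10 and Mir467b, had no count.

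Among Mir669 hairpins, Mir669c had 227 and 471 counts (97.6 ± 43.2 CPM) and Mir669o had 205 and 484 (96.1 ± 50.3 CPM). These levels were not resolved from each other: the ratio of Mir669c to Mir669o was 1.11 in replicate 1 (exact 95% interval 0.913 to 1.34) and 0.973 in replicate 2 (0.855 to 1.11). Mir669l, at 47 and 111 counts (22.04 ± 11.5 CPM), was the lowest of the 6 detected members. Mir669e had 8 and 55 counts and Mir669h had 2 and 10, so both missed the minimum in replicate 1. Mir669e and Mir669h had a ratio of 4.0 in replicate 1 with an interval from 0.798 to 38.7, and their order was not settled there.

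In the order of mean levels, Mir467d, Mir467e, Mir669c, Mir669o, Mir467c, Mir669l, Mir669e and Mir669h, each pair of neighbours differed beyond counting error in both libraries except Mir669c with Mir669o and Mir669e with Mir669h. The remaining 8 members with a count were near the floor. In replicate 2, Gm24806 had 3 counts, Gm22239 had 2, and Gm22072, Mir669f, Gm25263 and Mir466h had 1 each, all with 0 in replicate 1. Mir297a-2 and Mir466n had 1 count in replicate 1 and 0 in replicate 2. At 1 to 3 counts in a single library, these hairpins cannot be distinguished from 0 in the other.

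Counts came from both ends of the array and not from its middle. The longest run of consecutive members with 0 counts in both libraries went from Mir466b-1 to Gm26398 (chromosome 2, 10474219 to 10504773) and held 72 members over 30.6 kb, or 57.7% of the cluster's length. Upstream of it, 17 members gave 142 counts in replicate 1 and 363 in replicate 2, nearly all from Mir669e (10467495 to 10467613), Mir669l (10468971 to 10469068) and Mir467c (10473931 to 10474027). Downstream, 30 members gave 2302 and 3932 counts. They included Mir467e (10505721 to 10505807), Mir467d (10507630 to 10507714), Mir669c (10509296 to 10509404), Mir669o (10514300 to 10514395) and Mir669h (10518155 to 10518279).

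The central run is where the hairpins are most alike. It was chosen here by its counts of 0, so its bounds are a description. Of its 72 members, 52 had no unique window and the median was 0%. Among the 17 upstream members none lacked a unique window, and the median was 50.7%. Downstream 2 of 30 lacked one, Mir669a-2 and Gm26092, and the median was 58.8%. Mir467 hairpins, with Gm25022 among them, recurred through the array at an even pitch: the 13 spacings from Mir467c to Mir467e ran from 2413 to 2470 bases, with a median of 2450. From Mir467e to Mir467d the step was 1909 bases. Within each repeat a Mir467 hairpin was mostly followed by a Mir466 and a Mir669a or Mir669p hairpin and by Mir669-type Gm hairpins. Mir467c and Mir467e, at the 2 ends of the even series, were counted, and the 12 hairpins between them were all at 0.

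**Figure D2:**
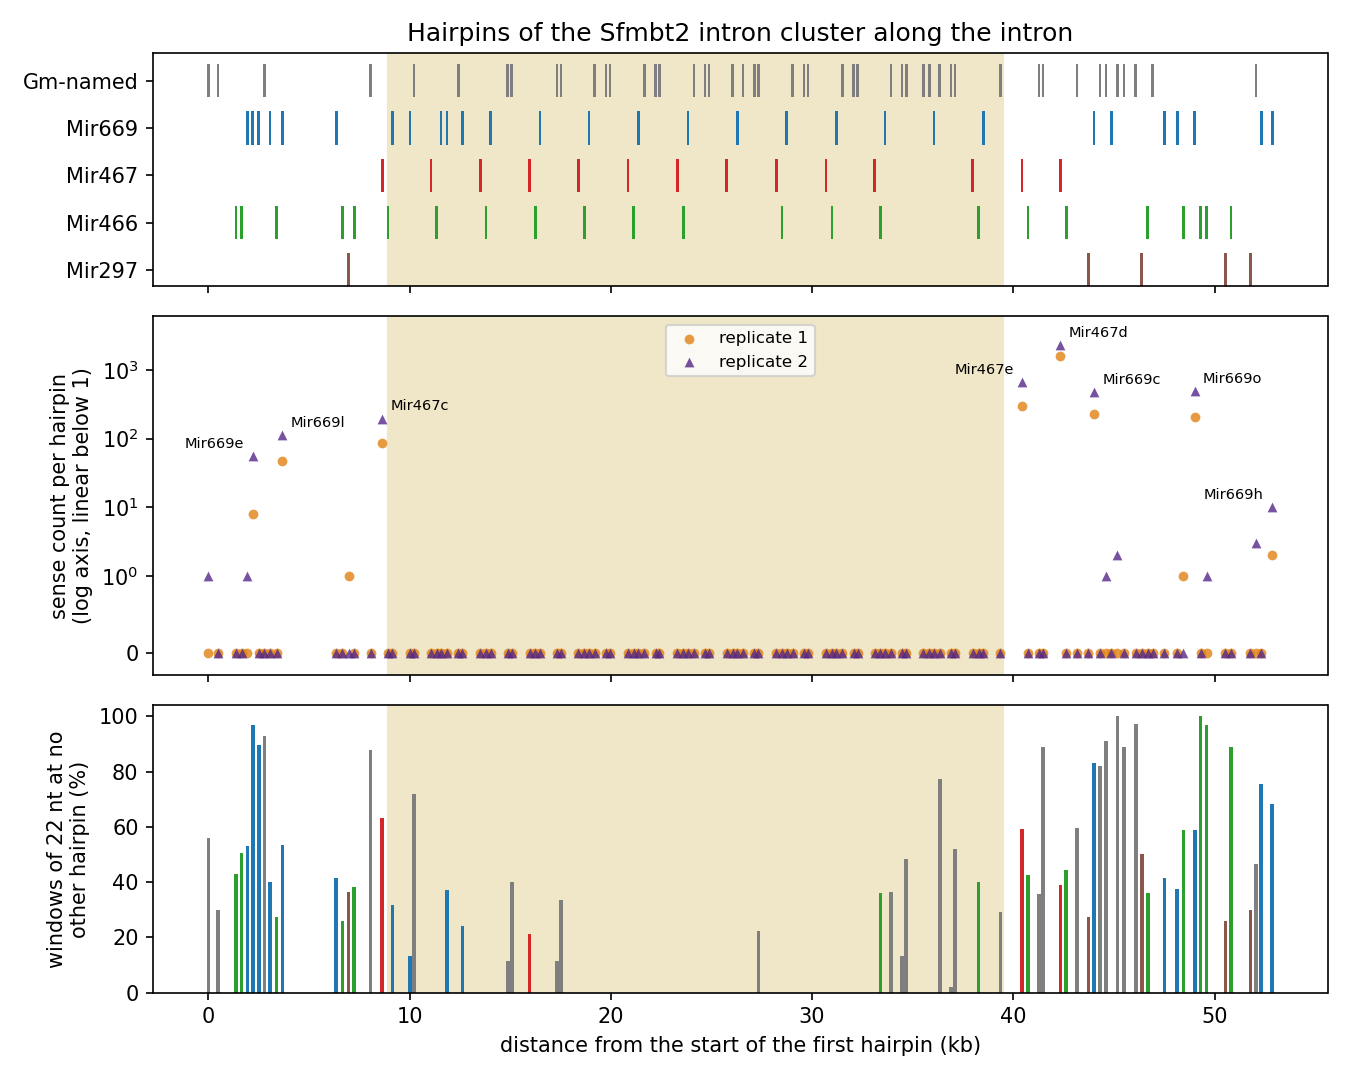
The cluster along the intron, with distance from the first hairpin in kb on the x axis. Top, hairpin positions by family; middle, sense counts per hairpin in replicate 1 (circles) and replicate 2 (triangles) on a log axis that is linear below 1; bottom, percent of 22 nt windows at no other annotated hairpin. The shaded 30.6 kb hold 72 members, all at 0 counts, and the labelled hairpins lie on either side.

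The deposited tables hold a row named for multimapping reads, those that fit more than 1 place, but the rule by which reads were sent there is not given in the sources used here. Gene counts and the 4 rows that are no genes summed to the same library total in each of the 3 columns, 9362013 reads in replicate 1 and 10549508 in replicate 2. The multimapping row held 4111511 reads in replicate 1 (43.9% of the library) and 4559491 in replicate 2 (43.2%), which was 1682 and 1062 multimapping reads for each read counted in the cluster. How many of them came from this cluster cannot be read from the tables. A count of 0 at a hairpin without a unique window, such as Mir467a-1 or Mir669a-4, is therefore no measure of the mature microRNA. The family shares above are shares of reads assigned to a hairpin, and the levels, ranks and order of the detected members rest on such reads too.

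Set by their windows, the 54 members without a unique one all had 0 counts in both libraries. Of the 36 with some unique windows but under 50%, 1 was detected, Mir467d, at 39.1% unique windows. Of the 29 with 50% or more, 5 were detected (17.2%). In the other 2083 hairpins, 2 of 243 without a unique window were detected (0.823%) and 308 of 1550 with 50% or more (19.9%). These shares are descriptions over hairpins that are not independent, and no test was made of them.

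Unique windows did not by themselves come with counts, in the members or in other hairpins. Of the 29 members at 50% or more, 13 had 1 or more counts, as did 684 of the 1550 other hairpins at 50% or more. The 16 such members with no count in either library were 6 with a family name and 10 Gm genes. Mir466g had 100% unique windows, Mir669b 89.5%, Mir466l 89.0% and Mir669i 75.5%, all at 0 counts. Mir669e at 96.9% had 8 and 55 counts, and Mir669c, at 83.0%, had 227 and 471. Windows are taken over the whole hairpin, and whether the arm that yields the mature strand recurs was not tested. At Mir466g no window recurred at another annotated hairpin.

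All counted reads of the cluster were on the sense strand. The antisense column held 0 reads for every member in both libraries, which allows up to 0.123% of the cluster's reads in replicate 1 and 0.0698% in replicate 2 (3 counts). Over all genes, antisense counts were 21.5% of sense plus antisense counts in replicate 1 and 18.8% in replicate 2. These shares are no measure of antisense reads, since the 2 columns can count the same read at hairpins on opposite strands. Gene totals in the column for either strand, 2458090 and 2824159, were below the sense totals of 3383676 and 3676084. The share of other genes with 0 antisense reads was not counted, so a count of 0 antisense reads is not shown to be particular to the cluster.

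Genes of the same families on other chromosomes added next to nothing. Of the 10 relatives, Mir466q on chromosome 3 (28419943 to 28420018) had 4 counts in replicate 1 and 2 in replicate 2. The other 9, Mir297-1, Mir466f-4, Mir466i, Mir466j, Mir466k, Mir467f, Mir467g, Mir467h and Mir669n, had 0 in both. Unlike every member counted in both libraries, Mir466q was not higher in replicate 2, although 4 and 2 counts cannot be told apart.

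The 6 detected members were higher in replicate 2 than in replicate 1. For each of the 316 detected genes, the counts of both libraries were set against the share expected from their TMM sizes (exact binomial test, two-sided), and p-values were adjusted over these genes by Benjamini-Hochberg. The test sets these libraries, not conditions, against counting noise. All 6 were called higher in replicate 2 at an adjusted p of 0.05, in a background of 105 of 316 genes called in that direction (33.2%) and 86 lower (27.2%). The median log2 ratio of replicate 2 over replicate 1 was 0.94 over the 6 members and 0.05 over the 316 genes. With 60.4% of genes called in either direction, a call here is common.

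Mir467d moved least. Its fold of replicate 2 over replicate 1 was 1.23 (exact 95% interval 1.15 to 1.31; exact binomial test, adjusted p = 4.58e-10). The other 5 had folds of 1.91 for Mir467e (1.67 to 2.20), 1.75 for Mir669c (1.49 to 2.06), 1.99 for Mir669o (1.69 to 2.36), 1.92 for Mir467c (1.48 to 2.50) and 2.00 for Mir669l (1.41 to 2.87). Their adjusted p-values ran from 4.27e-21 for Mir467e to 9.56e-05 for Mir669l (exact binomial test). The interval of Mir467d did not overlap those of the other 5, which all overlapped one another. Mir669e, left out of the test for its 8 counts in replicate 1, had a fold of 5.81 (2.75 to 14.1).

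The makeup of the cluster shifted accordingly, and such ratios within a library do not depend on how the libraries are scaled. In replicate 1 Mir467d made up 64.4% of the cluster's counts (62.4 to 66.2, Wilson), and in replicate 2 it made up 53.4% (51.9 to 54.9). Its ratio to Mir467e was 5.35 (exact 95% interval 4.72 to 6.08) and 3.44 (3.16 to 3.76). The ratio of Mir467e to Mir467c, by contrast, was 3.42 in both libraries (2.68 to 4.40 and 2.91 to 4.03).

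Markers of other cell types also differed between the libraries. Summed white blood cell markers (3 of 3 detected) stood at 3048 CPM in replicate 1 and 9382 in replicate 2, smooth muscle markers (2 of 2) at 35639 and 50822, the endothelial marker Mir126a at 129043 and 57714, and erythroid markers (2 of 2) at 2810 and 1058. Cardiac muscle markers summed to 5722 and 4902 CPM. Epithelial and endocrine hairpins, a list added after values were seen (11 hairpins of the Mir200, Mir203, Mir205, Mir375 and Mir183 groups, 9 detected), summed to 233 and 994 CPM. All 11 had the higher CPM in replicate 2, among them Mir96 with 0 and 2 counts and Mir200b with 110 and 144. Because the list followed the values, their direction is no test. The list is also not complete, and other epithelial hairpins were lower in replicate 2. Mir215 had 311 and 23 counts, Mir192 111 and 48, Mir194-1 58 and 29, and Mir194-2 102 and 54. Over the 316 detected genes, 168 were higher in replicate 2 by TMM sizes. The part of any of these markers in the difference of the cluster was not tested. In bulk tissue, more cells of a type and more RNA per cell cannot be told apart.

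**Figure D3:**
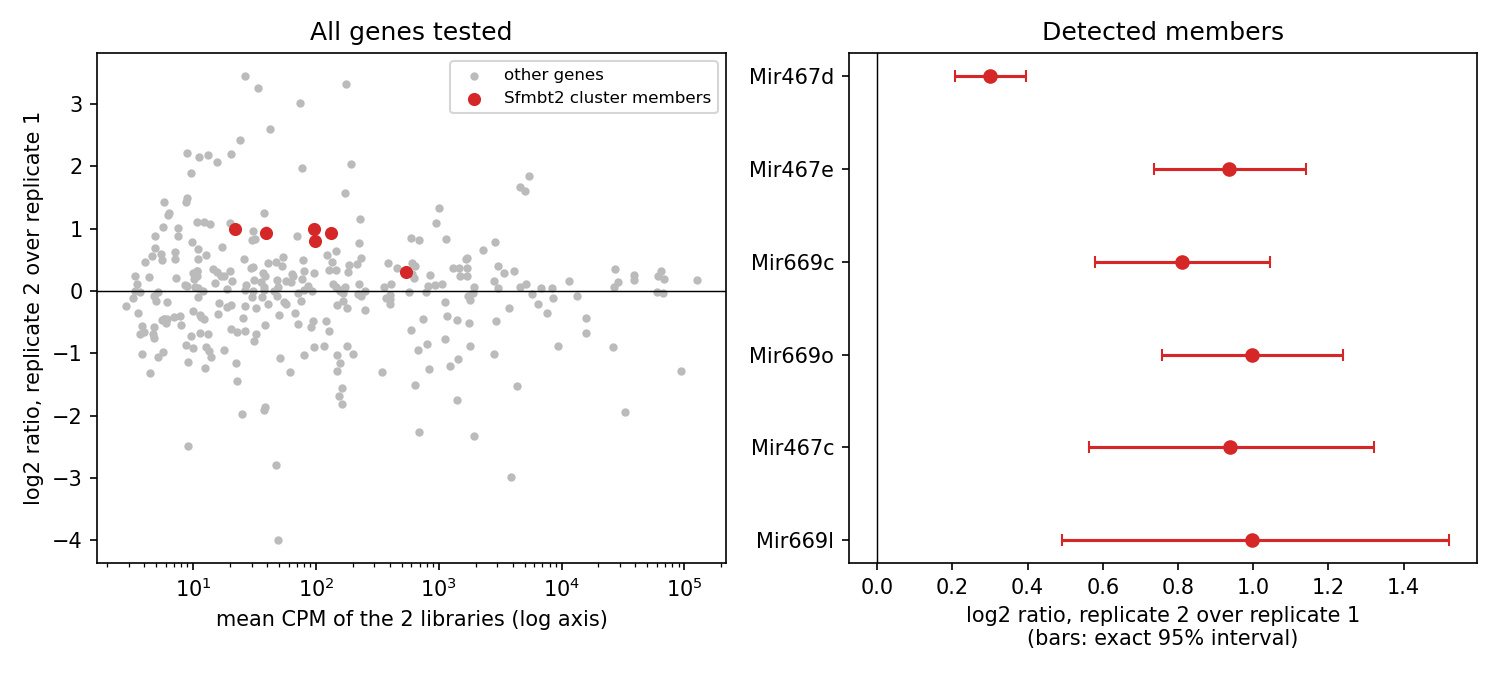
Left, log2 ratio of replicate 2 over replicate 1 (y) against mean CPM (x, log axis) for the 316 detected genes, with the 6 cluster members in red, all above 0. Right, the log2 ratio of each detected member with its exact 95% interval; Mir467d (0.30) lies to the left of the other 5 (0.81 to 1.00).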

How the data were processed

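The authors deposited 1 table of raw read counts a library, with 3 columns for either strand, sense and antisense reads, told apart by their values because a header is absent. According to the deposited readme texts, reads were counted on mm10 with GENCODE M21. Aligner and counter: not given in the sources used here. The 4 rows that are no genes (unmapped, multimapping, featureless, ambiguous) were kept out of totals. In the sense column they took 14.9%, 43.9%, 5.07% and 0% of replicate 1 and 16.2%, 43.2%, 5.75% and 0% of replicate 2. The effect of CAST/EiJ variants was not tested.

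All 2202 identifiers matched GENCODE M21, which also gave the hairpin sequences. Libraries were compared with two-sided exact binomial tests (scipy 1.17.1, Python 3.11.15) on sense counts, with TMM sizes from edgeR 4.0.16 in R 4.3.3; DESeq2 1.42.0 size factors, library totals, minimum counts of 5 and 20, no filter, and reads on either strand were alternatives. The test was checked on data simulated with counting noise only, the noise it assumes, so the check does not cover variation beyond counting. Hairpins were aligned with edlib 1.3.9.post1. Named genes are all members with a count, the 4 relatives with the highest mean CPM (only 1 had counts, so all 10 are named) and, chosen after their values were seen, the epithelial and endocrine hairpins, members at 0 with mostly unique windows and those that mark the array. The planned match of mature arms was replaced by hairpin windows. Members and lists were chosen with earlier results of these data known.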

Additional observations from a re-analysis of the deposited data

How the results depend on the processing

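The share of the cluster in the sense gene counts, 0.0945% ± 0.0315 (SD, n = 2), depends on its denominator. It was 0.0334% of all reads of the library and 0.0424% of sense gene counts plus multimapping reads, both lower by construction. In the column for either strand it was 0.126% ± 0.0372 of gene counts. Member counts there were unchanged, and the gene totals were lower, at 2458090 in replicate 1 and 2824159 in replicate 2. The number of detected members stayed between 6 and 8 under minimum counts of 5 and 20, reads on either strand, selection by family name, and either library alone (6 without replicate 2 and 8 without replicate 1, where Mir669e and Mir669h pass). All 6 detected members were called higher in replicate 2 under each scaling and filter tried (exact binomial test), and Mir669e joined them at a minimum of 5 counts and with no filter. With no filter, 16 members were tested and 7 were called higher. Over all genes, those called higher were 93 of 316 with DESeq2 size factors and 128 of 316 with library totals. They were 112 of 362 at a minimum of 5, 97 of 268 at 20, 112 of 708 with no filter and 98 of 294 on either strand. The log2 ratio of Mir467d lay between 0.25 (DESeq2 size factors) and 0.42 (library totals). Library totals moved the median of all genes from 0.05 to 0.18. Windows of 20 and 18 nt, added after seeing the data, also left 54 members with no unique window. Shorter windows could raise this number but not lower it, and longer windows were not tried. At 18 nt, however, 3 detected members instead of 1 fell under 50% unique windows. No paired analysis was possible because the libraries form 1 group. Copies of the members' own mature arms were not counted. Depth limits single hairpins at 0 to below 0.887 and 0.816 CPM, for reads assigned to a hairpin.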
